A study of Mus musculus with 32 samples.

Results

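The 7 genes described here encode enzymes of triglyceride synthesis in interscapular brown adipose tissue (iBAT): Gpam, Agpat2, Agpat3, Lpin1, Lpin2, Dgat1 and Dgat2. They were taken by symbol through their Ensembl identifiers, and all 7 were found among the 50686 genes of the count table and passed the filter on low counts, as did 15505 genes in all. The tissue came from male C57BL/6J mice, 10 weeks old per the labels, all wild type, fed chow and kept under a light:dark cycle in mild cold, with no group given a drug or an allele. Time is given as Zeitgeber time (ZT), the hours since lights on, so that ZT12 opens the active phase in darkness. Tissue was taken every 3 h, at 8 time points of 4 mice, and each mouse gave 1 library, 32 in all, of stranded paired-end RNA sequencing. The question asked of the data was at which time of day each enzyme's transcript was high or low.

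Triglyceride is built on glycerol 3-phosphate in consecutive steps at the endoplasmic reticulum and the outer mitochondrial membrane. A glycerol-3-phosphate acyltransferase adds the first fatty acid, a lysophosphatidate acyltransferase the next, a lipin removes the phosphate from phosphatidate to leave diacylglycerol, and a diacylglycerol acyltransferase adds the last fatty acid. In brown adipocytes the product is stored in many small droplets, which are broken down again by lipases to feed heat production.

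Gpam (ENSMUSG00000024978, chromosome 19, 55067268 to 55127238) encodes the mitochondrial glycerol-3-phosphate acyltransferase of the first step. Agpat2 (ENSMUSG00000026922, chromosome 2, 26593057 to 26604417) and Agpat3 (ENSMUSG00000001211, chromosome 10, 78269178 to 78352489) encode lysophosphatidate acyltransferases. Lpin1 (ENSMUSG00000020593, chromosome 12, 16535669 to 16610966) and Lpin2 (ENSMUSG00000024052, chromosome 17, 71182560 to 71249817) encode lipins, phosphatidate phosphatases that can also act in the nucleus as coregulators of transcription. Dgat1 (ENSMUSG00000022555, chromosome 15, 76502015 to 76511953) and Dgat2 (ENSMUSG00000030747, chromosome 7, 99153658 to 99182719) encode 2 unrelated proteins that catalyse the last step. Positions are whole genes, exons and introns, on GRCm38; Lpin2 lies on the plus strand and the other 6 on the minus strand.

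Both lipin genes moved together among mice of the same time point, as described further on, so the sequences at their starts are shown here. They are RefSeq promoters on GRCm38.p6, read on the strand of the gene from 250 bases before to 50 bases after the transcription start, and capitals mark the motifs found. The Lpin1 promoter lies on the minus strand at chr12:16610917-16611216 and the Lpin2 promoter on the plus strand at chr17:71183282-71183581.
Lpin1 promoter: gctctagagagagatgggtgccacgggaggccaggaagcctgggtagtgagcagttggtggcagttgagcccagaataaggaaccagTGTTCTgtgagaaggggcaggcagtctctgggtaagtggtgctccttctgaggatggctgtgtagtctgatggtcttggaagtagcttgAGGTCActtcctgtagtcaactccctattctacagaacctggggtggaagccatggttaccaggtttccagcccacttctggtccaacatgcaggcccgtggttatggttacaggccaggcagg
Lpin2 promoter: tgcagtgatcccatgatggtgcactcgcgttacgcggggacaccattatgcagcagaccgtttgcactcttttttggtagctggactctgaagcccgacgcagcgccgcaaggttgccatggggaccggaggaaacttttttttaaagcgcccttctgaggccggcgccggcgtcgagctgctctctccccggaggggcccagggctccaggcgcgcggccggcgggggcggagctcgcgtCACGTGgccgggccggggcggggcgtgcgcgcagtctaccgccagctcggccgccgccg
The Lpin1 window held the nuclear receptor half-site AGGTCA at -74 from the start, and at -163 TGTTCT, the reverse complement of the glucocorticoid half-site AGAACA. The Lpin2 window held the E-box CACGTG, the motif that clock factors of the Clock and Arntl family are known to bind, at -9. Among all 32851 promoter windows of the same length, AGGTCA was present in 16.3%, AGAACA in 19.0% and CACGTG in 7.15%, on either strand. The D-box TTATGTAA (0.938% of all windows), the cAMP response element TGACGTCA (1.79%) and the C/EBP palindrome TTGCGCAA (0.183%) were also searched and were in neither window, and no motif searched overlaps another within these windows. The table held 8 windows for 5 of the members; of the others, 1 for Lpin2 (AGAACA at -203) and 1 for Gpam (AGGTCA at -196) held a motif. A match to letters is a description of the sequence and does not show that a factor binds there.

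Sequencing depth was even, with 16300770 to 18254659 counts per library. Counts are given as CPM, relative to library size after scaling by the TMM method of edgeR. At this depth 6 of the members had at least 2127 counts in every library, and Lpin2 had 184 to 337, so its values carry more counting error. The markers of brown adipocytes were all 8 measured and summed to 3654 to 7485 CPM per library, with Ucp1 at a mean of 2209 CPM. The markers of the labelled tissue were thus present in every library.

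The summed CPM of 10 skeletal muscle genes ran from 55.0 to 6139 between libraries and exceeded 1000 CPM in 15 of the 32. At least 1 such library was present at each time point, and the highest sum of a time point lay between 1544 CPM at ZT6 and 6139 CPM at ZT3. The deviations of this sum from the time point means were not related to those of any member past the threshold (7 relations, permutation test, lowest BH-adjusted p = 0.359). The sums of the 5 adipocyte markers (9494 to 15052 CPM), the white adipocyte markers (46.0 to 414 CPM, Hoxc9 and Hoxc10 not passing the filter), endothelium (539 to 822 CPM), stroma (302.8 to 968 CPM) and lymph node markers (5.98 to 24.4 CPM, with Ccl21a at 0 throughout and Cr2 not passing the filter) differed between time points (permutation tests, adjusted p over 9 lists 9.0e-05 to 0.0340). Those of blood (265 to 1137 CPM), leukocytes (10.4 to 89.8 CPM), brown adipocytes and muscle did not pass (adjusted p = 0.120 to 0.610). In whole tissue, fewer cells of a type and less RNA per cell cannot be told apart. Of the white adipocyte markers, Lep and Nnat oscillated by the rank test JTK_CYCLE (BH-adjusted P = 1.43e-04 and 0.00184), and Retn did not. Of the adipocyte markers, Lpl and Adipoq did (BH-adjusted P = 5.52e-04 and 0.0422), and Plin1, Pparg and Fabp4 did not. Rhythm of these transcripts and change in cells cannot be told apart in the sums.

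Sequencing lane 2 held ZT0, ZT3 and ZT6, lane 3 held ZT9, ZT12 and ZT15, and lane 4 held ZT18 and ZT21. Between lanes, lane and time of day cannot be told apart. The cosine is therefore also given with lane as a term, and the time points were also tested within lanes. JTK_CYCLE and the test of all 8 time points have no such counterpart.

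The members differed widely in level. Per kb of exon, the mean over all libraries was 705 CPM for Dgat2 and 580.0 CPM for Agpat2. It was 72.6 for Lpin1, 67.5 for Dgat1, 61.9 for Agpat3 and 35.8 CPM per kb for Gpam. Lpin2, at 1.11 CPM per kb, stood far below the other 6 members. The isoenzymes of a step differed in level per length in each case, with Agpat2 above Agpat3, Lpin1 above Lpin2 and Dgat2 above Dgat1 in every library.

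Most members varied with the time of day. A 24 h cosine passed for 6 of the 7 members, all but Agpat2, where 36.1% of all tested genes passed (edgeR, Benjamini-Hochberg (BH) adjustment over 15505 genes, threshold 0.05). With lane in the same fit 4 members passed (Gpam, Agpat3, Lpin1 and Dgat2) against 17.2% of all genes. A difference between the 8 time points of any shape passed for 4 members (Agpat3, Lpin1, Lpin2 and Dgat2) against 39.8%. JTK_CYCLE, a rank test for oscillation, called 5 members at P under 0.05 (background 36.9%) and 3 after BH adjustment (background 27.5%), which were Agpat3, Lpin1 and Dgat2. With scaling by library size alone, Dgat1 and Lpin2 passed BH as well (adjusted P = 0.00640 and 0.0212) and Gpam had P = 0.0210 (exact null). With TMM scaling only Agpat3, Lpin1 and Dgat2 of the members had P under 0.01, as had 25.9% of all genes. The changes were moderate. The median ratio of fitted peak to trough was 1.33 over the members, which is the ratio of Agpat2, the member not called. It was 1.21 over all tested genes and 1.35 over the genes called by the cosine test.

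**Figure D1:**
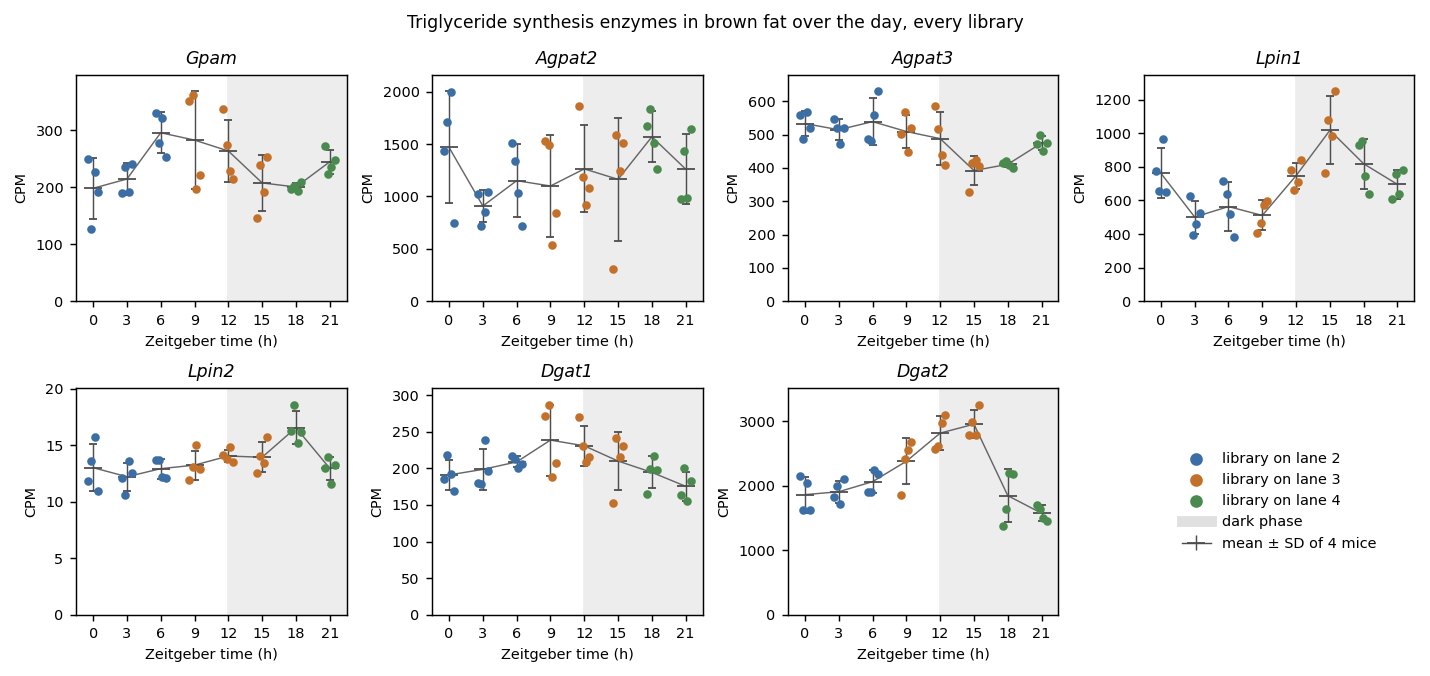
CPM of each of the 7 enzymes against Zeitgeber time in hours, 1 point per library coloured by sequencing lane, with the mean and SD of the 4 mice of a time point and the dark phase shaded. Dgat2 averaged 2952 CPM at ZT15, Lpin1 ran from 501 CPM at ZT3 to 1018 CPM at ZT15, and the mice of Agpat2 were spread from 308 to 1993 CPM.

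Dgat2, one of the diacylglycerol acyltransferases, had the lowest p of the members in the cosine test without lane. It read 2155, 1615, 2039 and 1627 CPM in the mice of ZT0 and 2569, 2609, 2973 and 3101 CPM in those of ZT12. Every mouse at ZT12 was above every mouse at ZT0. The contrast of ZT12 against ZT0 was 0.60 as a log2 fold change (SE 0.13, edgeR adjusted p = 0.00216), and Dgat2 was the only member called in it, where 15.9% of all genes were. These time points were on different lanes. The summed adipocyte markers were 10559 to 12519 CPM at ZT0 and 11960.0 to 15052 CPM at ZT12. Those of endothelium were 658 to 822 CPM at ZT0 and 539 to 581 CPM at ZT12, without overlap. Those of stroma were 322 to 477 CPM at ZT0 and 536 to 732 CPM at ZT12, also without overlap. Nor did those of lymph node overlap, with 6.70 to 9.89 CPM at ZT0 and 10.1 to 13.0 CPM at ZT12. The part of these cell types in the result was not tested.

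The means of Dgat2 over the light phase were 1904 ± 171 CPM (SD, n = 4) at ZT3, 2060.2 ± 179 CPM (SD, n = 4) at ZT6 and 2377 ± 359 CPM (SD, n = 4) at ZT9. At ZT15 the mice read 2785, 2978, 2788 and 3255 CPM, its highest mean, and at ZT21 1703, 1642, 1495 and 1444 CPM, its lowest. The mice of these time points did not overlap, although each time point overlapped the next in the order of means. The summed white adipocyte markers, with Lep and Nnat among them, were 209 to 414 CPM at ZT15 and 77.0 to 152 CPM at ZT21. They were 46.0 to 77.6 CPM at ZT6 and 138 to 244 CPM at ZT18, and their part in the values of Dgat2 was not tested. At ZT18 Dgat2 was 1370.0, 1634, 2191 and 2178 CPM, so 2 mice were near the level of ZT6 and 2 were lower than any mouse of ZT6. The fitted peak was ZT11.6 (SE 0.601 h), and the log2 amplitude was 0.37 (SE 0.06, edgeR adjusted p = 2.75e-05), a ratio of peak to trough of 1.67. With lane as a term the amplitude was 0.34, the peak ZT14.2 and the edgeR adjusted p 0.0496, just under the threshold. Within no single lane did Dgat2 pass (edgeR adjusted p = 0.554, 0.317 and 0.427 on lanes 2, 3 and 4).

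For Dgat1, the other diacylglycerol acyltransferase, the range over the day was smaller. Its means lay between 176 ± 20.2 CPM (SD, n = 4) at ZT21 and 239 ± 48.5 CPM (SD, n = 4) at ZT9. The mice of ZT9 read 272, 287, 188 and 208 CPM, so that 1 of them was within the range of ZT21, with 163, 201, 156 and 182 CPM. The cosine peaked at ZT9.98 (SE 0.997 h) with an amplitude of 0.18 (log2, SE 0.05, edgeR adjusted p = 0.00733). It did not pass beside lane (amplitude 0.15, edgeR adjusted p = 0.397) or within lanes 2, 3 and 4 (edgeR adjusted p = 0.599, 0.823 and 0.478). The test of the time points did not pass (edgeR adjusted p = 0.111), but did by library size alone (edgeR adjusted p = 0.0404). In JTK_CYCLE, by its exact null, P was 0.0147, and 0.0519 after BH adjustment. The BH-adjusted value was under 0.05 in each of the 4 other JTK_CYCLE settings, 0.00640 by library size alone, 0.0466 with the size factors of DESeq2, 0.0331 with 24 h templates and 0.0351 with the filter without groups.

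Lpin1 had the widest fitted range of the members with and without lane in the fit, with a ratio of peak to trough of 1.77 in the fit without. Its mice read 776, 659, 965 and 648 CPM at ZT0 and 627, 397, 458 and 524 CPM at ZT3. The lowest mouse of ZT0 was above the highest of ZT3. This step, on 1 lane, was -0.60 as a log2 fold change (SE 0.18, edgeR adjusted p = 0.0284), and Lpin1 was the only member called in it, against 13.8% of all genes. The stroma markers rose over the same step, from sums of 322 to 477 CPM at ZT0 to 581 to 891 CPM at ZT3 without overlap. Their part was not tested. Leaving out 1 mouse of these time points ended the call in 5 of 8 fits, with edgeR adjusted p up to 0.123 without replicate 3 of ZT0, which had the highest Lpin1 of its time point. Without replicate 1 of ZT0 the edgeR adjusted p was 0.0612, and without replicates 2, 3 or 4 of ZT3 it was 0.0947, 0.0782 and 0.0501.

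Lpin1 then stayed low until ZT9 and rose across the onset of the dark phase. On lane 3 its mice read 405, 468, 574 and 596 CPM at ZT9, 779, 665, 707 and 840.1 CPM at ZT12 and 762, 1076, 982 and 1249.8 CPM at ZT15. All mice of ZT12 and ZT15 were above all mice of ZT9. The 3 time points differed within this lane (edgeR adjusted p = 0.0220), and no other member passed there, with a background of 1.78%. That call was lost without replicate 2 of ZT9 or without replicates 2, 3 or 4 of ZT15 (edgeR adjusted p = 0.0664, 0.0607, 0.0740 and 0.0826). The steps on their own were 0.55 as a log2 fold change (SE 0.18, edgeR adjusted p = 0.454) from ZT9 to ZT12, where none of the tested genes passed, and 0.44 as a log2 fold change (SE 0.18, edgeR adjusted p = 0.196) from ZT12 to ZT15.

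In the second part of the dark phase the means of Lpin1 were 818 ± 150.5 CPM (SD, n = 4) at ZT18 and 695 ± 85.6 CPM (SD, n = 4) at ZT21. The fitted peak was ZT17.1 (SE 0.707 h) with an amplitude of 0.41 (log2, SE 0.08, edgeR adjusted p = 3.25e-04). With lane as a term the amplitude was 0.72 and the peak ZT16.9 (edgeR adjusted p = 1.38e-04), the lowest p of the members in that fit. In lane 4 the muscle marker sum and Lpin1 moved in opposite directions among the 8 mice (r = -0.975, exact permutation test, p = 0.00694), as did the sum and Agpat2 (r = -0.900, exact p = 0.00694). Over all 32 mice r for Lpin1 was -0.384 and rho -0.364 (permutation p = 0.0531 and 0.0667, BH-adjusted p of r 0.359). With the muscle sum as a covariate the cosine of Lpin1 still passed (edgeR adjusted p = 3.11e-04), and in the 17 libraries with no more than 1000 CPM of muscle transcripts 3 members passed, Lpin1, Lpin2 and Dgat2, against 18.5% of all genes. Gpam, Agpat3 and Dgat1 lost their calls in these libraries (edgeR adjusted p = 0.131, 0.0846 and 0.151), with log2 amplitudes of 0.28, 0.17 and 0.15 against 0.22, 0.20 and 0.18 in all libraries.

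Lpin2 varied little for most of the day. Its means stayed between 12.2 ± 1.24 CPM (SD, n = 4) at ZT3 and 14.0 ± 0.571 CPM (SD, n = 4) at ZT12, except at ZT18, where the mice read 16.3, 18.6, 15.2 and 16.2 CPM. The libraries of ZT18 also stood apart in mitochondrially encoded transcripts, with 18.5% to 20.7% of counts against 21.2% to 24.0% at ZT21 and at least 21.2% at every other time point. The summed endothelium markers did not overlap either, with 652 to 758 CPM at ZT18 and 610 to 627 CPM at ZT21. The part of these in the ZT18 values of Lpin2, Agpat3 and Gpam was not tested. All 4 Lpin2 values were above the mice of ZT21 on the same lane, with 13.0, 13.9, 11.6 and 13.3 CPM. That step was -0.35 as a log2 fold change (SE 0.10, edgeR adjusted p = 0.0564), just short of the threshold, with 2.06% of all genes called. The time points differed (edgeR adjusted p = 0.0204), but not without replicate 2 of ZT18 (edgeR adjusted p = 0.102). The cosine had an amplitude of 0.14 (log2, SE 0.04) and a peak at ZT16.0 (edgeR adjusted p = 0.0164). With lane as a term the amplitude was 0.26 and the peak ZT13.9 (edgeR adjusted p = 0.0875).

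Agpat3 had its highest mean at ZT6 in the light phase and its lowest at ZT15 in the dark phase. Its mice read 487, 479.7, 558 and 629.5 CPM at ZT6, 586, 517, 438 and 410.0 CPM at ZT12 and 327, 414, 422 and 405 CPM at ZT15. The mice of ZT15 were all below those of ZT6, a pair picked by its means. Summed white adipocyte markers were 46.0 to 77.6 CPM at ZT6 and 209 to 414 CPM at ZT15, and their part was not tested. At ZT18 it was 414, 419, 409.9 and 399.7 CPM and at ZT21 471, 499.9, 451 and 476 CPM, without overlap. The peak of its cosine was ZT4.29 (SE 0.695 h), with an amplitude of 0.20 (log2, SE 0.04, edgeR adjusted p = 4.50e-04), and beside lane the amplitude was 0.26 (edgeR adjusted p = 0.0419). Within lane 4 the difference passed narrowly (edgeR adjusted p = 0.0471, background 4.02%) and was lost in all 8 fits that left out 1 mouse of ZT18 or ZT21 (edgeR adjusted p = 0.0620 to 0.111). In the fit of all libraries the step from ZT18 to ZT21 was 0.21 as a log2 fold change (SE 0.10, edgeR adjusted p = 0.322), and that from ZT12 to ZT15 was -0.32 as a log2 fold change (SE 0.10, edgeR adjusted p = 0.0812), where 3.04% of all genes passed. Agpat3 shares 16 exonic bases with the lncRNA Gm40709 on the opposite strand, which had 9 counts in all libraries together.

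Gpam, the first enzyme of the route, was highest at ZT6 and ZT9. It read 189, 235, 192 and 241 CPM at ZT3, 329.6, 278, 322 and 253 CPM at ZT6 and 350.5, 362, 196 and 222 CPM at ZT9. The mice of ZT3 and ZT6 did not overlap, while those of ZT9 fell into 2 high and 2 low values. Summed white adipocyte markers did not overlap either, with 78.9 to 149 CPM at ZT3 and 46.0 to 77.6 CPM at ZT6. Their part was not tested. The step from ZT3 to ZT6 was 0.46 as a log2 fold change (SE 0.19, edgeR adjusted p = 0.258) and did not pass, with 2.08% of all genes called. The cosine peaked at ZT8.33 (SE 1.36 h) with an amplitude of 0.22 (log2, SE 0.08, edgeR adjusted p = 0.0415). With lane as a term the amplitude was 0.39 and the peak ZT7.45 (edgeR adjusted p = 0.0304). The call without lane was close to the threshold: it was lost in 12 of the 32 fits that left out 1 library (replicate 4 of ZT0, 1, 2 or 3 of ZT6, 1 or 2 of ZT9, 1 or 2 of ZT12, any of ZT18), with edgeR adjusted p up to 0.0914 without replicate 2 of ZT9, and with the muscle sum as a covariate (edgeR adjusted p = 0.0554). JTK_CYCLE, by its exact null distribution, did not call Gpam (P = 0.0798, and 0.0210 by library size alone), and the test of the 8 time points did not pass (edgeR adjusted p = 0.0541), but did by library size alone (edgeR adjusted p = 0.0233) and with DESeq2 (adjusted p = 0.0162). The cosine of Gpam was also lost with no filter on low counts (edgeR adjusted p = 0.0648) and with the replicate block (0.0553). On lane 4 the mice of ZT18, 197, 202, 194 and 209 CPM, were all below those of ZT21, 273, 223, 236 and 247 CPM. The edgeR adjusted p was 0.0471 within that lane, and it was above 0.05 in all fits without 1 of these mice but that without replicate 2 of ZT21 (0.0468 to 0.113).

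**Figure D2:**
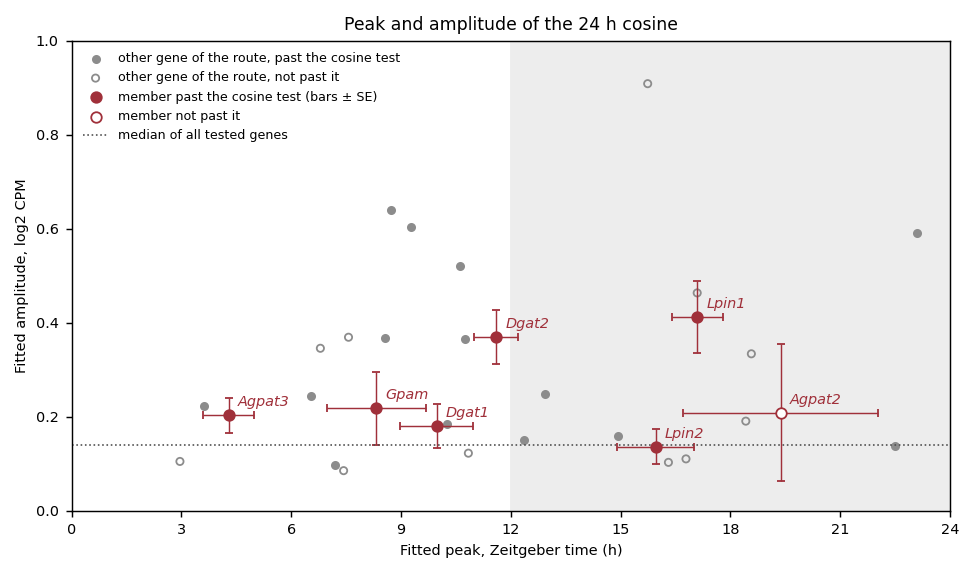
Fitted peak in Zeitgeber hours (horizontal) and fitted amplitude in log2 CPM (vertical) of the 24 h cosine, for the 7 enzymes with bars of 1 SE and for 25 other genes of the route, filled where the edgeR adjusted p was under 0.05, with the dark phase shaded and a dotted line at the median amplitude of all tested genes. The called enzymes peaked from ZT4.29 (Agpat3) to ZT17.1 (Lpin1), and in this fit, which has no lane term, Lpin1 and Dgat2 had the largest amplitudes among them.

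Agpat2, the lysophosphatidate acyltransferase whose loss is known to cause lack of fat tissue, passed no test over time with all libraries. Without replicate 4 of ZT0 it was called within lane 2. Its amplitude was 0.21 (log2, SE 0.15, edgeR adjusted p = 0.371), about that of Agpat3 and Gpam, but its mice were far more spread. They read 1526, 1491, 536 and 846 CPM at ZT9 and 308, 1589.6, 1239 and 1514 CPM at ZT15. The lowest and highest libraries differed 6.46-fold, against 1.93-fold for Agpat3. The SD among mice of the same time point was 0.60 on the log2 scale, at percentile 92.9 of all tested genes, and 77.0% of the variance of Agpat2 lay within time points, as against 19.9% for Dgat2. Reads of Agpat2 could in part belong to Egfl7, which shares 64 exonic bases on the opposite strand and had 40517 counts against 683669 for Agpat2. No source used here says if strand entered the counting.

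Mice low in Agpat2 for their time point tended to be high in mitochondrially encoded transcripts. At ZT9 these took 21.8%, 22.8%, 28.2% and 27.5% of the counts of replicates 1 to 4, and at ZT15 26.7%, 23.3%, 22.9% and 22.8%. Thus the replicates with the lowest Agpat2, replicate 3 of ZT9 and replicate 1 of ZT15, had the highest share of their time point. These libraries stood apart in cell type markers too. Replicate 3 of ZT9 had the highest sums of blood (1137 CPM) and leukocyte markers (89.8 CPM) of all libraries and 966 CPM of stroma markers. Replicate 1 of ZT15 had the lowest brown adipocyte sum (3654 CPM), the highest white adipocyte sum (414 CPM) and 6029 CPM of muscle markers. Over deviations from the time point means, r between Agpat2 and this share was -0.747 (Spearman's rho -0.733, n = 32 mice, permutation p = 2.1e-04 and 1.1e-04, BH-adjusted p of r over 7 members 0.00147). Within lanes 2, 3 and 4, r was -0.643, -0.810 and -0.796 (exact permutation tests, p = 0.0694, 0.0140 and 0.0347). Without the 2 libraries farthest in Agpat2 r was -0.680. Mitochondrial counts are part of the total that CPM is divided by. With counts scaled to the total outside mitochondrial genes r was -0.727. This relation was looked for after the values had been seen, and what it reflects was not tested.

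Of the other members, Dgat1 was also lower in mice with a higher mitochondrial share (r = -0.593, rho = -0.560, permutation tests, p = 0.00653 and 0.00871, BH-adjusted p of r 0.0229). Without the 2 libraries farthest in Dgat1 r was -0.452. By lane the values were -0.352, -0.850 and -0.0648 for lanes 2, 3 and 4. Scaled to the total outside mitochondrial genes r was -0.352 (permutation p = 0.0937). For Dgat2 r was 0.427 and rho 0.373 (BH-adjusted p of r 0.0720), with 0.325, 0.439 and 0.710 within lanes and, scaled to that total, 0.652 (permutation p = 6.4e-04). Gpam, Agpat3, Lpin1 and Lpin2 did not pass (r from -0.427 to -0.0475, lowest BH-adjusted p = 0.157). Within lanes, Gpam had r = -0.805 on lane 3 and 0.639 on lane 4 (exact permutation p = 0.0291 and 0.109), and Lpin1 had r = -0.903 on lane 4 (exact permutation p = 0.0122). Without the 2 libraries farthest in Gpam its r was -0.465 (permutation p = 0.0365). Scaled to the total outside mitochondrial genes, r was -0.248 for Gpam, 0.428 for Agpat3, -0.0650 for Lpin1 and 0.220 for Lpin2 (permutation p = 0.286, 0.0535, 0.799 and 0.499), so the sign turned for Agpat3 and Lpin2.

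**Figure D3:**
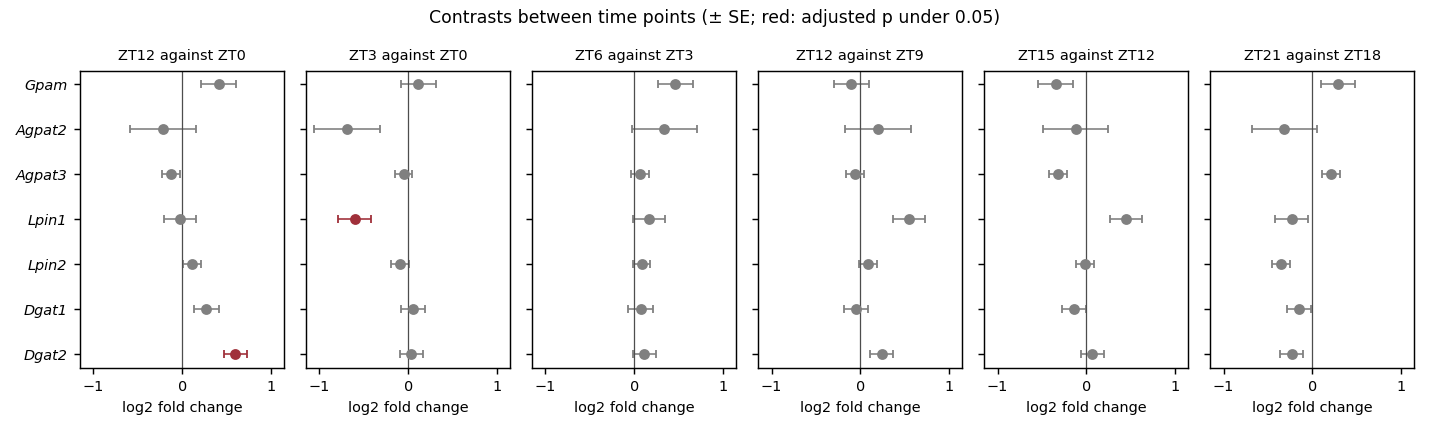
Log2 fold change (horizontal, with bars of 1 SE) of the 7 enzymes in 6 contrasts between time points, red where the edgeR adjusted p was under 0.05. The only red points are Dgat2 in ZT12 against ZT0 (0.60) and Lpin1 in ZT3 against ZT0 (-0.60), and the bars of Agpat2 are the widest.

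Over the contrasts, 2 of the 42 member tests passed. They share time points and the fit, so they are not independent. On lane 2 no member passed in the edgeR test of the 3 time points (background 12.6%, lowest edgeR adjusted p = 0.0803, for Gpam), and 2 members had an unadjusted p under 0.05. Between ZT9 and ZT12 no member passed, and the background was 0% there. In the same edgeR fit 1047 of the 15505 genes had an unadjusted p under 0.05 at that step, 1 of them a member (Lpin1), and DESeq2 called no member either. No member passed from ZT3 to ZT6, from ZT12 to ZT15 or from ZT18 to ZT21, where edgeR gave 1, 2 and 2 members an unadjusted p under 0.05. DESeq2 called Agpat3 from ZT12 to ZT15 and Lpin2 from ZT18 to ZT21.

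Because a ratio of transcripts within a library does not depend on how libraries are scaled, the isoenzymes of a step were also compared with each other, per kb of exon. Lpin1 exceeded Lpin2 in every library, by 39.6-fold to 99.9-fold. The geometric mean of the ratio was lowest at ZT9 (48.0) and highest at ZT15 (90.5). The mice of this pair, picked by its means, did not overlap. The log2 ratio differed between time points (F = 7.88, permutation test, p = 6.0e-05, BH-adjusted over 3 ratios p = 1.8e-04). It did so within lane 2 (exact permutation test, p = 0.0474) and lane 3 (p = 3.46e-04, exact), and it did not pass between ZT18 and ZT21 on lane 4 (p = 0.371, exact).

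Dgat2 exceeded Dgat1 by 6.77-fold to 18.1-fold, with a geometric mean of 8.89 at ZT21 and 14.1 at ZT15. The ratio had a permutation p of 0.0417, which did not pass after adjustment (0.0626), and did not pass within any lane (exact permutation tests, p = 0.181 to 0.986). Agpat2 exceeded Agpat3 by 3.45-fold to 16.0-fold, most in the mice of ZT18 with a geometric mean of 13.8. That ratio did not differ between time points past the threshold (permutation p = 0.203), with the lowest value in replicate 1 of ZT15, without which p was 0.0275.

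**Figure D4:**
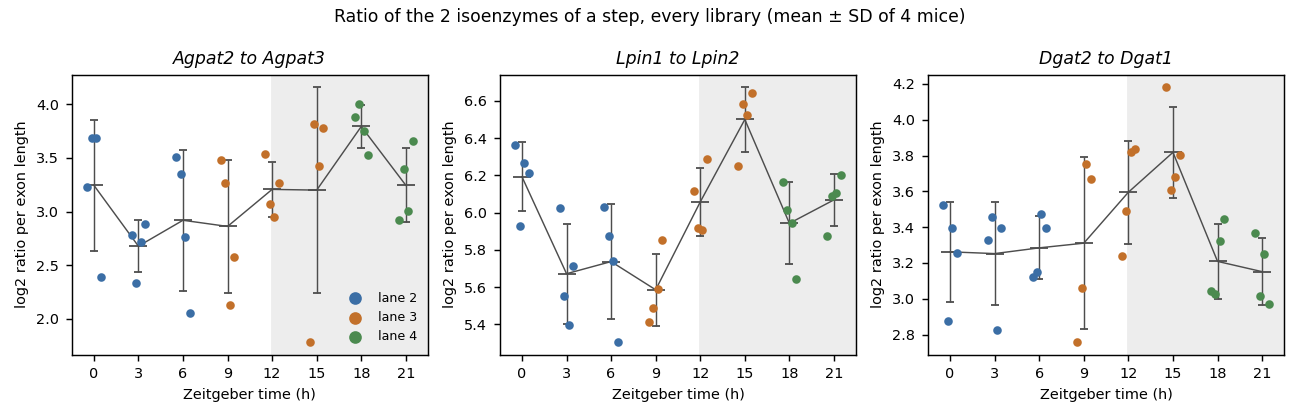
Log2 ratio per exon length of Agpat2 to Agpat3, Lpin1 to Lpin2 and Dgat2 to Dgat1 against Zeitgeber time in hours, 1 point per library coloured by lane, with mean and SD of 4 mice and the dark phase shaded. The ratio of the lipins is lowest at ZT9 and highest at ZT15, and 1 mouse of ZT15 lies far below the others in the ratio of Agpat2 to Agpat3.

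Whether the enzymes vary together was examined among mice of the same time point, for 6 pairs chosen by their place in the route. Lpin1 and Lpin2 deviated together (r = 0.622, rho = 0.641, n = 32 mice, permutation tests, BH-adjusted p = 0.00570 for r and 0.00564 for rho). Within lanes 2, 3 and 4 r was 0.584, 0.705 and 0.609 (exact permutation p = 0.0460, 0.0469 and 0.163), and without the 2 mice farthest in Lpin1 it was 0.597. A mouse high in 1 lipin for its time of day thus tended to be high in the other.

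For consecutive steps, Agpat2 and Lpin1 were related (r = 0.502, rho = 0.463, permutation tests, BH-adjusted p = 0.0259 and 0.0311). Within lanes r was 0.791, 0.272 and 0.883 (exact permutation p = 0.00383, 0.510 and 0.00174), and without the 2 mice farthest in Agpat2 0.530. Gpam and Agpat2 were related over all lanes (r = 0.583, rho = 0.567, BH-adjusted p = 0.0259 and 0.0266), but the within-lane values were 0.0890, 0.889 and -0.412 (exact permutation p = 0.852, 5.79e-04 and 0.498). This relation thus did not hold within lanes 2 and 4. With scaling by library size alone, Agpat2 passed with neither Lpin1 (r = 0.356, permutation p = 0.0866) nor Gpam (r = 0.464, p = 0.0536).

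Agpat2 and Agpat3 did not pass after adjustment (r = 0.461, rho = 0.426, BH-adjusted p = 0.0574 and 0.0703), and without the 2 mice farthest in Agpat2 r was 0.233. The r within lanes 2, 3 and 4 was -0.334, 0.781 and 0.719 (exact permutation tests, p = 0.357, 0.00535 and 0.0903). Neither Dgat1 and Dgat2 (r = -0.0577) nor Lpin1 and Dgat2 (r = 0.0147) were related past the threshold (BH-adjusted p = 0.945 for both). For Lpin1 and Dgat2 r was 0.00695, 0.753 and -0.766 within lanes 2, 3 and 4 (exact permutation p = 0.983, 0.00470 and 0.108). Among the 21 pairs of members the highest r within time points was that of Agpat2 and Dgat1, 0.778, given as a description.

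**Figure D5:**
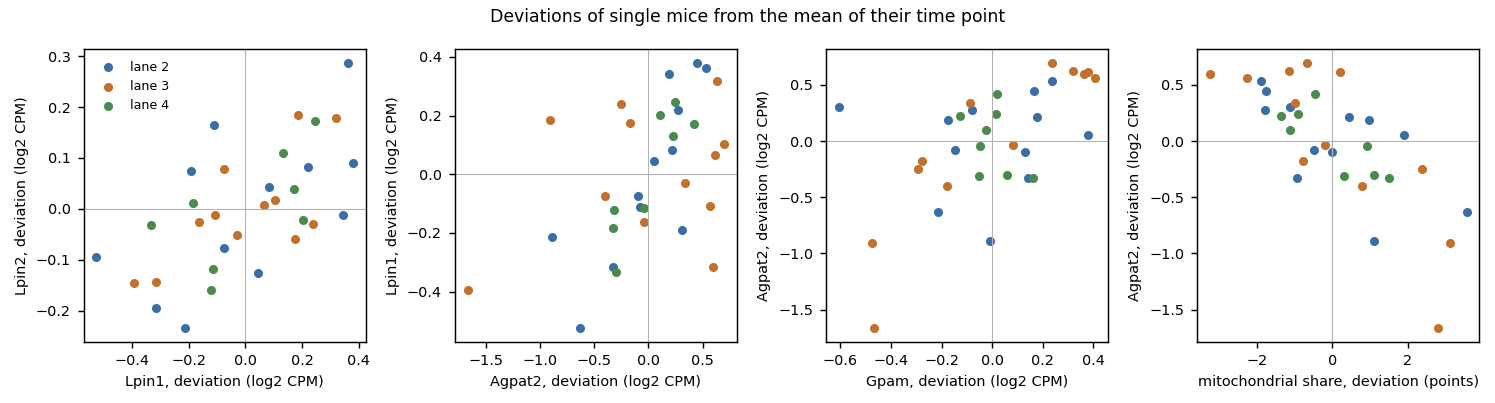
Deviations of single mice from the mean of their time point in log2 CPM, for Lpin2 against Lpin1, Lpin1 against Agpat2, and Agpat2 against Gpam, and for Agpat2 against the share of counts on mitochondrially encoded genes in percentage points, coloured by lane. Both lipins deviate in the same direction in most mice (r = 0.622), and Agpat2 falls as the mitochondrial share rises (r = -0.747).

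The genes whose profiles were most like those of the members, by Pearson's r of log2 CPM over the same 32 libraries and among 13449 genes with a mean of at least 1 CPM, are given as a description; all points share libraries, lanes and depth. For deviations from the time point means, genes close to Agpat2 were Acsl5 (r = 0.955), an acyl-CoA synthetase, and Acot11 (0.946), an acyl-CoA thioesterase. Over all libraries its nearest genes were Acot11 (0.916), Plin2 (0.914), a coat protein of lipid droplets, and Nat8l (0.912), which makes N-acetylaspartate. Agpat3 deviated most like Cluh (0.909), an RNA-binding protein for mitochondrial transcripts, Oplah (0.897) and Ucp1 (0.882), the uncoupling protein of brown fat.

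Lpin1 was most like Mid1ip1 (0.856), an activator of acetyl-CoA carboxylase, over all libraries, followed by Usp10 (0.848) and Sh2b2 (0.845), and in deviations most like Klhdc7a (0.852), Anks1 (0.849) and Tapbpl (0.846). Lpin2 was most like Dlgap4 in both (0.771 and 0.788), followed by Dpf3 (0.745) and Gm5884 (0.690) over all libraries and P2ry2 (0.741) and Anks1 (0.734) in deviations. Dgat2 was near Smpd1, the lysosomal sphingomyelinase (0.850 over libraries, 0.763 in deviations), Ttc38 (0.861 and 0.723), Osbp2 (0.851 over libraries) and Pcif1 (0.718 in deviations). Dgat1 was near Pxmp4, a peroxisomal membrane protein, Pdp2 and Bfar (0.817 to 0.832), and in deviations Tysnd1 (0.864), Fam213a (0.837) and Uck1 (0.835). For Gpam these were Vps33a (0.849), Atp6v1a (0.841), a subunit of the proton pump of lysosomes, and Acbd5 (0.838), and in deviations Nadk2 (0.857), Iars2 (0.857) and 2610507B11Rik (0.853).

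Of 26 further genes of the route, 25 passed the filter on low counts (Gpat2 did not), 14 had a 24 h cosine and 4 had one beside lane (edgeR, backgrounds as above). The median ratio of peak to trough was 1.40 over the 25. In the contrast of ZT12 against ZT0, on different lanes, 6 were higher and none was lower, against 15.9% of all genes called in either direction. Gpat4, the glycerol-3-phosphate acyltransferase of the endoplasmic reticulum, had an amplitude of 0.64 (log2, edgeR adjusted p = 3.30e-08, 6.80e-04 beside lane) and a peak at ZT8.74, with 46.2 CPM per kb on average against 35.8 for Gpam. It differed within lane 2 (edgeR adjusted p = 0.0135) and was 0.70 higher at ZT12 on the log2 scale. Gpat3, of the same enzyme class, peaked at ZT10.6 with an amplitude of 0.52 (log2, edgeR adjusted p = 7.78e-05, 0.0682 beside lane).

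In the step of phosphatidate formation, Agpat1 peaked at ZT12.9 (amplitude 0.25 log2, edgeR adjusted p = 2.04e-06); beside lane its amplitude was 0.13 and the call was lost (edgeR adjusted p = 0.424), and Agpat4 and Agpat5 did not pass. Lpin3, the third lipin, peaked at ZT10.8 (amplitude 0.36 log2, edgeR adjusted p = 5.10e-04, 0.206 beside lane) and had 1.89 CPM per kb, above the 1.11 of Lpin2. The lipid phosphate phosphatases Plpp1 and Plpp2 passed with peaks at ZT3.62 and ZT6.53, but not beside lane (edgeR adjusted p = 0.0623 and 0.0545), where their log2 amplitudes were 0.23 and 0.53 against 0.22 and 0.24 without lane and the peak of Plpp2 was ZT3.16, and Plpp3 passed only beside lane (edgeR adjusted p = 0.0184). Cds1 and Cds2, which divert phosphatidate to phospholipids, had amplitudes of 0.16 and 0.10 (log2, edgeR adjusted p = 0.00282 and 0.0363, and 0.347 and 0.130 beside lane).

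Of the genes that supply the substrates, Acsl1, the main acyl-CoA synthetase of fat, peaked at ZT8.56 with an amplitude of 0.37 (log2, edgeR adjusted p = 6.40e-05, 0.0149 beside lane). Glycerol kinase (Gk) peaked at ZT9.27 (amplitude 0.60 log2, edgeR adjusted p = 0.00269, 0.0997 beside lane). Gpd1, which makes glycerol 3-phosphate from a glycolytic intermediate, had 2390.1 CPM per kb, and its cosine did not pass (edgeR adjusted p = 0.0941). Acsl4, Acsl5, Gpd1l and Fitm2, which helps lipid droplets to form, also had a cosine, and none of these passed beside lane (edgeR adjusted p = 0.265 to 0.969). Pck1 passed only beside lane, and Acsl3, Acsl6, Bscl2, Fitm1, Mogat1 and Mogat2 passed neither.

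Among 6 lipolysis genes, Pnpla2 (adipose triglyceride lipase), its inhibitor G0s2 and the lipase Ces1d had a cosine, with peaks at ZT13.1, ZT16.6 and ZT16.8 and amplitudes of 0.14, 0.96 and 0.27 (log2). Lipe, Mgll and Abhd5 did not pass (edgeR adjusted p = 0.264, 0.194 and 0.274). Of these, G0s2 and Ces1d also passed beside lane, and Pnpla2 did not (edgeR adjusted p = 0.967).

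Of 8 regulators, Srebf1, Mlxipl, Cebpa, Ppara and Thrsp had a cosine and Pparg, Nr1h3 and Ppargc1a did not. Beside lane Thrsp did not pass (edgeR adjusted p = 0.221) and Ppargc1a did (0.0218). Srebf1, which drives lipogenic genes, peaked at ZT15.3 (amplitude 0.37 log2, edgeR adjusted p = 0.00440, 0.0118 beside lane), and Mlxipl, the carbohydrate response factor, at ZT20.6 (0.44 log2, edgeR adjusted p = 0.00367). For comparison all 11 clock genes passed, with a median ratio of peak to trough of 6.43.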

How the data were processed

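RNA was isolated from interscapular brown fat of 32 mice, and stranded libraries were sequenced at 100 bp paired end. Per the labels, the authors aligned reads to mm10 with GSNAP, counted them per Ensembl gene with HTSeq (0.6.1) and used MultiQC. The deposited values are raw counts per gene and library. The strand setting of the counting is not given in the sources used here, so reads of a gene and an overlapping gene on the other strand could not be told apart.

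Groups are the 8 time points of the labels, and lanes come from the library names. Counts were scaled by TMM, and genes with low counts were removed by filterByExpr with the time points as groups, which left 15505 genes with 99.9% of all counts. Quasi-likelihood tests of edgeR (4.0.16) were fitted to all genes: a 24 h cosine, the same beside lane, the 8 time points, the time points within each lane, and 6 contrasts. P-values were adjusted by Benjamini-Hochberg over all genes, with a threshold of 0.05. JTK_CYCLE was implemented anew, with an exact null, and run with periods of 21 and 24 h. Its values can differ from those of the tool that the study used. Amplitudes and peaks were fitted to log2 CPM with a prior count of 2. Ratios and relations were tested with 100000 permutations within the design, and exactly within lanes. DESeq2 (1.42.0) was an alternative. The cosine test and JTK_CYCLE were tested on simulated data. Libraries of a time point differed by more than counting noise (mean chi-square per gene at least 7.37). Total counts of 16300770 to 18254659 per library set the counting error.

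Named genes were the members, the fixed lists and, for each member, the 3 genes most like it over libraries and the 3 most like it in deviations from time point means. A gene that this rule names is not reported here. The members and lists were chosen with earlier results of these data known. Symbols were matched for 50376 of the 50686 identifiers. Alternatives were other scalings and filters, a replicate block, muscle markers as a covariate and leaving out each library. Mice were killed at each time point, so each library is a separate animal.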

Additional observations from a re-analysis of the deposited data

Results flagged for a closer look

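On the CPM scale, no member had a mouse that stood apart from the other 3 of its time point by Dixon's 95% criterion, in 0 of 56 groups tested. On the log2 CPM scale, examined after the data had been seen, 2 of 56 groups did, where chance gives about 5%. Both were at ZT15, where replicate 1 had the lowest value of Agpat2 (308 CPM, a gap of 0.848 of the range) and of Agpat3 (327 CPM, a gap of 0.840 of the range). Without this library the cosine of Agpat2 still did not pass (edgeR adjusted p = 0.117).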

How the results depend on the processing

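Of 324 alternatives that leave out no single library, 267 kept direction and side of the threshold, and 10 counts moved, 33 values lost the threshold, 11 gained it and 3 changed sign. The causes were not tested. The cosine passed for 3 members in the 17 libraries low in muscle transcripts (2868 genes against 5602 in all), an alternative chosen, like the covariate, after seeing the data. JTK_CYCLE at P under 0.01 called 3 members, against 25.9% of all genes. Within lane 4 the count was 1 by library size alone, which was Lpin2, with Gpam and Agpat3 lost (edgeR adjusted p = 0.0754 and 0.0580), and 4 with muscle markers as a covariate. For ZT3 against ZT0 it was 0 when only those 8 libraries were fitted. For ZT15 against ZT12 it was 1 with DESeq2, and for ZT21 against ZT18 it was 1 by library size or DESeq2 and 2 with only those 8 libraries. Over all genes, the covariate gave 103 calls on lane 3 (276 without) and 1136 on lane 4 (624 without), and lane beside the cosine 2661.

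The F of the lipin ratio was 0.934 within lane 4, and that of Dgat2 to Dgat1 was 0.0169, 2.05 and 0.167 within lanes 2, 3 and 4. The r of Lpin1 and Lpin2 was 0.609 within lane 4. For Agpat2 and Agpat3 it was 0.147 by library size, 0.233 without the 2 farthest mice, -0.334 within lane 2 and 0.719 within lane 4. For Gpam and Agpat2 it was 0.464 by library size, 0.0890 within lane 2 and -0.412 within lane 4. For Agpat2 and Lpin1 it was 0.356 by library size and 0.272 within lane 3, and for Lpin1 and Dgat2 0.753 within lane 3. Agpat3 and the mitochondrial share had r = 0.709 within lane 2 (exact permutation p = 0.0461).

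Leaving out 1 library at a time gave 5 to 6 members for the cosine, 3 to 6 for the time points, 0 to 1 within each of lanes 2 (Agpat2, without replicate 4 of ZT0), 3 and 4, 1 to 1 for ZT12 against ZT0, 0 to 1 for ZT3 against ZT0 and ZT15 against ZT12, and 0 to 0 for the other 3 steps. F ran from 6.41 to 9.45 for the lipins, 1.14 to 2.87 for Agpat2 to Agpat3 and 1.71 to 3.14 for Dgat2 to Dgat1, whose unadjusted permutation p was above 0.05 in 14 of the 32 fits. The time points test of Gpam passed without any of 6 single libraries (lowest edgeR adjusted p = 0.0198, without replicate 3 of ZT9), and that of Dgat1 without replicate 3 of ZT9 or replicate 1 of ZT15 (0.0403 and 0.0331). Without replicate 4 of ZT12, Agpat3 passed in ZT15 against ZT12 (edgeR adjusted p = 0.0378).

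Replicate numbers did not pair the mice: deviations correlated at a mean r of -0.0333 for the same number and 0.0121 for other numbers, and 4 of 32 libraries were closest to their own number. With the replicate block the cosine passed for 5 members (5373 genes in all) and no member passed within lane 4 (0, with 72 genes against 624). On lane 3 the block left 101 genes against 276.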
